A study of Mus musculus with 4 samples.

Results

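MS4A proteins, the membrane-spanning 4-domains subfamily A, are small surface proteins that cross the membrane several times and sit beside immune receptors, whose signaling several of them tune. Of the mouse genes read here, Ms4a1 encodes the B-cell antigen CD20, Ms4a2 the beta chain of the high-affinity IgE receptor of mast cells and basophils, and Ms4a3 a protein of granulocyte-monocyte progenitors. Ms4a4b is known from T cells, and Ms4a6b, Ms4a6c, Ms4a6d and Ms4a7 are mostly known from monocytes and macrophages. The 9 genes were taken by symbol from the deposited table, and all 9 were found among its 23552 genes.

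The libraries came from c-Kit+ leukemic cells enriched from the bone marrow of moribund C57BL/6 mice with acute myeloid leukemia driven by the MLL-AF9 fusion, which all 4 libraries share. Control cells carried a control-eGFP overexpression construct (replicates 3 and 4), and SUV-OE cells carried Suv39h1-eGFP overexpression (replicates 2 and 3), the gene of a histone H3K9 methyltransferase. By the study's methods, MLL-AF9 cells were infected with the vector, sorted for eGFP and transplanted into sublethally irradiated recipients. Suv39h1 was placed in an MSCV-based plasmid, and whether cells of the recipients remained in the c-Kit+ fraction is not stated. The labels give neither the age of the mice nor the number of animals behind a library, so p-values measure only the spread between these libraries, which may be technical. The comparison asks how the expression of the family differs when Suv39h1 is overexpressed.

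The values are FPKM, fragments scaled to exon length and library size, so that levels are per length and can be compared between genes. Reads per library, recovered from the steps of the FPKM, ranged from 19564463 to 23011825, and 3 reads on 1 kb of exons were worth an FPKM of 0.154 to 0.178. Suv39h1 itself was at 12.4 in each control library and at 75.3 and 81.2 in the SUV-OE libraries (limma log2 fold change 2.56, standard error 0.11, adjusted p = 0.00866). Kit, the gene of the marker used for enrichment, was at 20.4, 19.2, 28.6 and 25.4 in control 3, control 4, SUV-OE 2 and SUV-OE 3, the order kept for every gene that follows (log2 fold change 0.43, limma adjusted p = 0.160). The 10 fixed c-Kit+ progenitor markers summed to 821 to 926 FPKM, and Mpo, Myb, Spi1 and Cebpa were the most abundant of them.

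The family lies on chromosome 19 (mm10, 10962293 to 11640851), a stretch of 679 kb in which GENCODE M21 annotates 19 Ms4a genes, 14 of them measured. Ms4a4c and Ms4a4b, and likewise Ms4a6c and Ms4a6b, are neighboring copies on the plus strand. Their upstream sequences are shown because these 4 genes include the members with the largest relative differences and 2 of the 3 most abundant ones. Each ends at the base before the start in RefSeq (GRCm38.p6) and is written on the plus strand, except Ms4a6b, whose last 106 upstream bases lie in an exon of a longer isoform and are left out. Capitals mark the longest run that a gene shares with its copy.
Ms4a4c, chr19:11407411-11407660: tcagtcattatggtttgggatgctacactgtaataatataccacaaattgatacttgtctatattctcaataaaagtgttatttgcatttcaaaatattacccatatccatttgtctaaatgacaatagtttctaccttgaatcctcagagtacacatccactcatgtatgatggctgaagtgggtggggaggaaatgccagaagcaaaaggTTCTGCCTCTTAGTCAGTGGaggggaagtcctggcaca
Ms4a4b, chr19:11443308-11443557: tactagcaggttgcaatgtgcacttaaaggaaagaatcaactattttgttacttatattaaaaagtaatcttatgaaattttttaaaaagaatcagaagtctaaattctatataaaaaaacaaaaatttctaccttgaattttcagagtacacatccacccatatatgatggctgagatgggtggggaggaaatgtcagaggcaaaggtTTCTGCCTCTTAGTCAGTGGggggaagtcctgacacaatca
Ms4a6c, chr19:11469118-11469367: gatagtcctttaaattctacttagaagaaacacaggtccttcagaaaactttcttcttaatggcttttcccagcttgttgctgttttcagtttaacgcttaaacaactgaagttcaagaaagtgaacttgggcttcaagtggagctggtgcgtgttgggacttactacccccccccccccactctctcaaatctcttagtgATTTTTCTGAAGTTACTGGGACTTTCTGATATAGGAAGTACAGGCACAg
Ms4a6b, chr19:11518309-11518452: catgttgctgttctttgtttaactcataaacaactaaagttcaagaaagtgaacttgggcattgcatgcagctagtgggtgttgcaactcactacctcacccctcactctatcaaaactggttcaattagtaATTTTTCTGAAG

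The windows of Ms4a4b and Ms4a4c were 70.8% identical when aligned, and their longest shared run was 20 bases, beginning at positions -41 and -38 from the start. Ms4a6b and Ms4a6c shared a run of 48 bases, beginning at positions -118 and -49, of which 12 are in the printed part of Ms4a6b, and their windows were 47.4% identical, within the range of the other pairs. Over the other 19 pairs among the 7 members with an entry in the promoter table, identity ranged from 47.2% to 53.1% and the longest shared run from 6 to 12 bases. Ms4a1 and Ms4a6d had no entry. The promoters of these 4 genes (300 bases each, from 250 before the start) held less G and C than the median promoter, at 40.0% for Ms4a4c, 35.7% for Ms4a4b, 45.0% for Ms4a6c and 43.0% for Ms4a6b against 52.7% over 32851 promoters of the same length. The letters GAGGAA, the core recognized by the myeloid factor PU.1 (searched on both strands), were found in the promoters of Ms4a4c (position -61), Ms4a4b (-64), Ms4a3 and 1 of the 2 promoters of Ms4a7, and in 28.3% of all promoters. The interferon regulatory factor element, GAAA followed after 2 free bases by GAAA, was found in 3.44% of all promoters and in none of the 8 windows of these 7 members. The C/EBP palindrome, TT and AA with C and 3 free bases between them, was in all of the windows but that of Ms4a2, and in 40.7% of all promoters. A match of letters is a description and not a site of binding.

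Ms4a3 was the most abundant member in every library. It was followed by Ms4a6c and Ms4a6b, and the remaining 6 members had low levels, with Ms4a1 at or near 0. The ranges over the 4 libraries were apart between Ms4a3, Ms4a6c, Ms4a6b and Ms4a4c in that order. Those of Ms4a4c and Ms4a6d, Ms4a6d and Ms4a2, Ms4a2 and Ms4a4b, and Ms4a4b and Ms4a7 overlapped, so the order of these neighbors is not set beyond their spread. Mean levels placed Ms4a3 at percentile 95.6 of all genes, Ms4a6c at 88.1, Ms4a6b at 74.0 and Ms4a1 at 4.59.

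**Figure D1:**
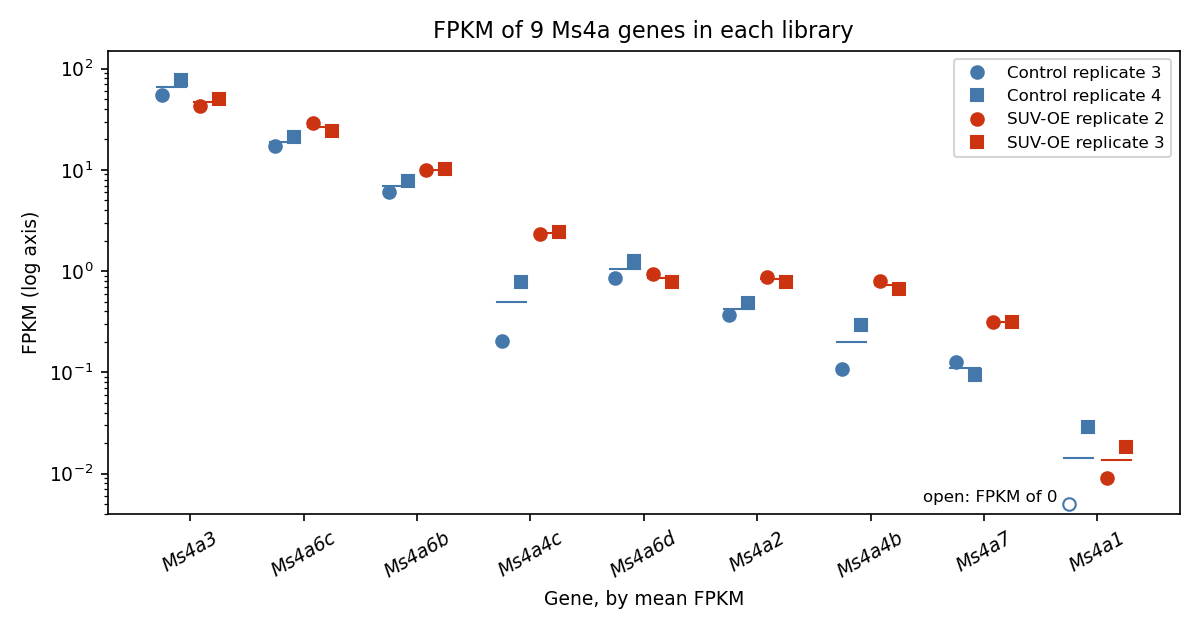
FPKM of the 9 Ms4a genes in each control and SUV-OE library, on a log axis, with points for libraries (open for a value of 0) and short lines for group means. Ms4a3 stands highest at 43.0 to 76.4, and in Ms4a4c the SUV-OE libraries (2.32 and 2.41) lie above the control libraries (0.206 and 0.778).

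The SUV-OE libraries were both above the control libraries in 6 of the 9 members (Ms4a2, Ms4a4b, Ms4a4c, Ms4a6b, Ms4a6c and Ms4a7), both below them in Ms4a3, and overlapped them in Ms4a1 and Ms4a6d. Over all genes of the table, 25.7% had both SUV-OE libraries above and 21.9% both below, and among the tested genes 25.4% and 28.4%. With 2 libraries in each group, an exact permutation test of a single gene cannot give a two-sided p under 0.333. The test used was therefore limma across all genes whose mean FPKM reached 0.5, on log2(FPKM + 1), a scale that understates the change of low genes. A gene was called at a Benjamini-Hochberg adjusted p under 0.05 if its log2 fold change also reached 1 in either direction. None of the 6 members that could be tested was called by limma, where 1.22% of the 13736 tested genes were called (0.815% higher and 0.408% lower in SUV-OE). At an unadjusted p under 0.05, limma gave 3 members (Ms4a4c, Ms4a6b and Ms4a6c) and 20.7% of tested genes, and at an adjusted p under 0.1 with the same fold, 1 member (Ms4a4c) and 2.49% of tested genes. Ms4a1, Ms4a4b and Ms4a7 were under the filter. Ms4a2 and Ms4a4c passed it only with their SUV-OE libraries, since their control means were under 0.5, so the count over tested members says nothing of the family. limma-voom on the recovered reads tested 8 members and called 2, Ms4a4b and Ms4a4c, both higher in SUV-OE, where it called 4.68% of 14283 genes (3.58% higher and 1.10% lower).

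Ms4a3 had an FPKM of 55.0, 76.4, 43.0 and 50.4, from 2014, 2430, 1438 and 1689 reads. Both SUV-OE libraries were the lower ones, and SUV-OE 3 lay close under control 3. The mean was 65.7 ± 15.2 (SD, n = 2) in control and 46.7 ± 5.24 in SUV-OE, a ratio of 0.711. The log2 fold change was -0.47 (standard error 0.20, 95% interval -0.99 to 0.06), which did not pass the test (limma adjusted p = 0.279). In these bulk libraries, here and for every gene that follows, fewer cells of a type and less RNA per cell cannot be told apart.

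The other genes of the granulocyte-monocyte progenitor list, the cells that Ms4a3 marks, showed no common direction. Of 14 measured genes, 7 were higher and 7 lower, at a median log2 fold change of 0.02 beside -0.02 over all tested genes. Ctsg, the gene of the granule protease cathepsin G, was at 2236, 2787, 1226 and 1353 (log2 fold change -0.95, limma adjusted p = 0.198), and both SUV-OE libraries lay below both control libraries. Prtn3 (proteinase 3) was at 771, 880, 565 and 728 and Mpo (myeloperoxidase) at 369, 349, 292 and 337, and Elane (neutrophil elastase) overlapped between groups at 1385 to 1825. None of these 4 most abundant genes was called. Irf8, a factor of monocyte commitment, rose from 5.22 and 5.01 to 11.6 and 11.0 (log2 fold change 1.01, limma adjusted p = 0.0405). Fcnb, the gene of ficolin B, rose from 5.80 and 10.1 to 52.1 and 57.9 (2.68, limma adjusted p = 0.0309). The list summed to 5529 and 6172 FPKM in control and to 4100 and 4928 in SUV-OE, so its sum moved with Ms4a3, and its part in the result was not tested. Without Ctsg the sum was 3293, 3385, 2874 and 3576, which overlapped between groups.

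The share that Ms4a3 took of the summed FPKM of the 9 members fell between 69.1% and 70.6% in control and between 49.5% and 56.3% in SUV-OE. The groups did not overlap in this share. The other 8 members summed to 24.6 and 31.8 in control and to 43.9 and 39.1 in SUV-OE, while the sum of all 9 was 79.6, 108, 86.9 and 89.6 and overlapped between groups. Control libraries had 3.24 and 3.63 times as much Ms4a3 as Ms4a6c, and SUV-OE libraries 1.50 and 2.09 times. The ratio of Ms4a6c to Ms4a6b, from 2.39 to 2.91, overlapped between groups.

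**Figure D2:**
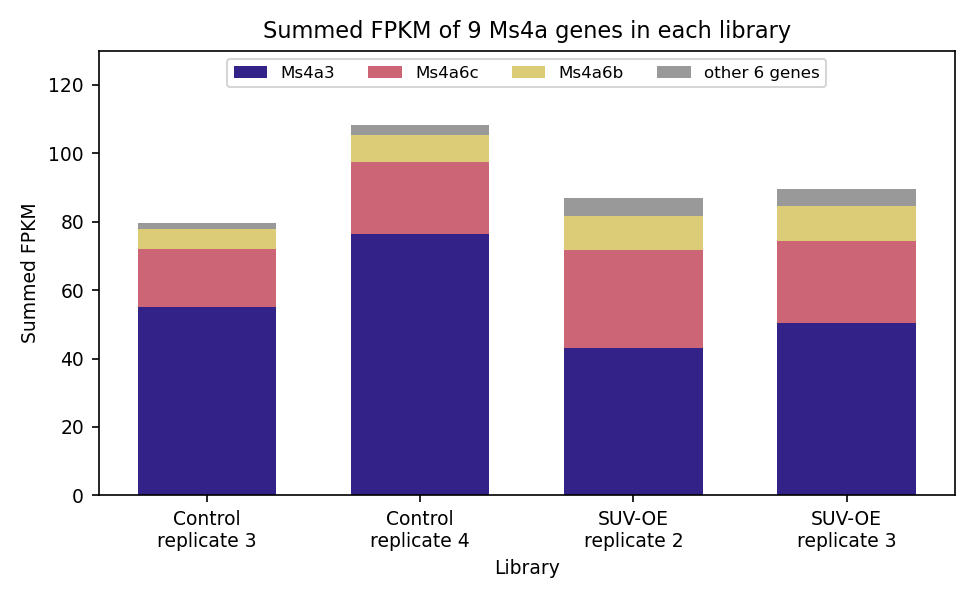
Summed FPKM of the 9 members in each library, with Ms4a3 separated from the other 8 members, bars starting at 0. Ms4a3 makes up 69.1% and 70.6% of the sum in control and 49.5% and 56.3% in SUV-OE.

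Ms4a4c showed the largest relative difference of the members tested by limma. Its FPKM was 0.206, 0.778, 2.32 and 2.41, from 7, 23, 72 and 75 reads, whose exact 95% counting intervals ran from 2.81 to 14.4 in control 3 and from 59.0 to 94.0 in SUV-OE 3. The SUV-OE libraries stood together, and the control libraries differed more from each other. The mean was 0.492 ± 0.405 in control and 2.36 ± 0.0651 in SUV-OE (SD, n = 2), a 4.80-fold difference. On the log2(FPKM + 1) scale the difference was 1.20 (standard error 0.23, 95% interval 0.59 to 1.81, limma adjusted p = 0.0964), which missed the threshold. On the recovered reads it was 2.55 (standard error 0.55, 95% interval 1.25 to 3.84, limma-voom adjusted p = 0.0430), and it was called. Intervals of read counts cover counting error only.

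Ms4a4b, its neighbor, had an FPKM of 0.107, 0.292, 0.801 and 0.672. Both SUV-OE libraries were again higher, with a mean of 0.737 ± 0.0916 against 0.20 ± 0.13 (SD, n = 2), a 3.69-fold difference. Its mean over the 4 libraries, 0.468, was under the filter. In the limma fit without the filter it differed by 0.54 on the log2 scale (standard error 0.11, adjusted p = 0.182), and limma-voom gave 2.07 (standard error 0.43, 95% interval 1.04 to 3.09, adjusted p = 0.0417), a call. The reads of Ms4a4b were 22, 52, 150 and 126 or, since its exon length is not settled by the FPKM, as few as 11, 26, 75 and 63. With the smaller numbers the limma-voom adjusted p was 0.0544, and the gene was not called.

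Without control 3, limma-voom kept neither call, and it also lost most of its calls over the whole table. Its log2 fold change was then 1.58 for Ms4a4c and 1.32 for Ms4a4b, and without control 4 it was 3.43 and 2.75. Leaving out control 4 or either SUV-OE library kept both calls. The copies also resemble each other in their exons: 7.73% of the 50-base stretches of Ms4a4c occur in Ms4a4b, so that some reads could have been counted for either gene.

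T and NK cell markers, beside which Ms4a4b is usually read, were mostly near 0. Of 15 measured, 11 had a mean FPKM under 0.5, and of the defining genes Cd3e was at 0, 0.0825, 0.0392 and 0.0392 and Cd8a at 0 in both control libraries and 0.0155 in each SUV-OE library. The NK receptor genes Ncr1 (0, 0, 10 and 12 reads) and Klrb1c (3, 3, 12 and 11 reads) were low and higher in SUV-OE, and of the 15 genes, 5 had both SUV-OE libraries above and 1 had both below, where the whole table had shares of 25.7% and 21.9%. The part of these genes in the difference of Ms4a4b was not tested. The list summed to 75.8, 116, 79.2 and 86.9, nearly all of it Nkg7, a granule protein gene, at 73.0, 112, 75.5 and 82.3. Lck, a kinase of T-cell receptor signaling, was at 1.84, 1.48, 0.616 and 0.922, lower in SUV-OE (log2 fold change -0.59, limma adjusted p = 0.178). Cd4 was at 0.472, 0.441, 1.27 and 0.711, and Trbc1 at 0.137, 0.237, 0.527 and 1.20. Of the 15 genes, limma tested 4 and limma-voom 3, Ncr1 and Klrb1c not among them, and neither called any.

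**Figure D3:**
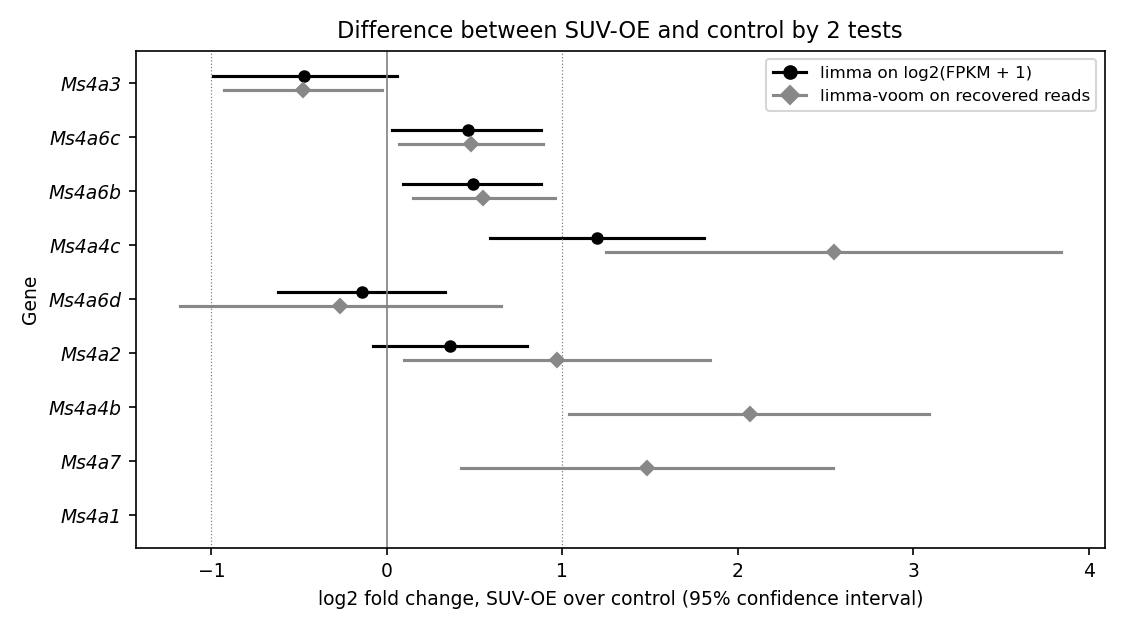
log2 fold change of each member, SUV-OE over control, with 95% confidence intervals, by limma on log2(FPKM + 1) (black) and limma-voom on recovered reads (gray), with dotted lines at a log2 fold change of 1 in either direction. Ms4a4c (1.20 and 2.55) lies farthest to the right, Ms4a4b and Ms4a7 were tested by limma-voom only, and Ms4a1 was tested by neither.

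Ms4a6c and Ms4a6b, the abundant members known from monocytes, were moderately higher in SUV-OE and did not pass the test. Ms4a6c had an FPKM of 17.0, 21.1, 28.7 and 24.1 from 677, 729, 1045 and 878 reads, with means of 19.0 ± 2.90 and 26.4 ± 3.28 (SD, n = 2). On the log2 scale limma gave 0.46 (standard error 0.16, 95% interval 0.03 to 0.88, adjusted p = 0.217). Both SUV-OE libraries were the higher ones.

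Ms4a6b had an FPKM of 5.98, 7.80, 9.88 and 10.1 from 522, 590, 786 and 804 reads, with means of 6.89 ± 1.28 and 9.98 ± 0.147 (SD, n = 2). The limma log2 fold change came to 0.49 (standard error 0.15, 95% interval 0.09 to 0.88, adjusted p = 0.184), and again the groups did not overlap. limma-voom gave 0.48 for Ms4a6c (adjusted p = 0.148) and 0.55 for Ms4a6b (adjusted p = 0.108).

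Ms4a6d, on the minus strand between Ms4a6b and Ms4a2, did not share this direction. Its FPKM was 0.859, 1.26, 0.942 and 0.778 from 29, 37, 29 and 24 reads, and the groups overlapped. The log2 fold change was -0.14 (standard error 0.18, 95% interval -0.62 to 0.33, limma adjusted p = 0.691), an interval that spans 0.

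Ms4a7, a macrophage gene, was low in every library, at 0.127, 0.0932, 0.316 and 0.316 from 11, 7, 25 and 25 reads. Both SUV-OE libraries were higher (2.87-fold over the means), on few reads. limma-voom gave a log2 fold change of 1.48 (standard error 0.45, 95% interval 0.42 to 2.54, adjusted p = 0.104), which was not called. Its control libraries averaged under the 10 reads that limma-voom required, so it entered that test only through SUV-OE.

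The value of Ms4a6c has a limit of its own. BE692007, a noncoding transcript on the minus strand (chromosome 19, 11470166 to 11484578), overlaps it, and 49.6% of the 50-base stretches of Ms4a6c occur there. The library kit does not mark strand, so reads of the overlapping genes cannot be told apart. BE692007 was at 0.776, 1.26, 2.87 and 2.19 (limma log2 fold change 0.81, adjusted p = 0.135), and limma-voom called it (1.36, adjusted p = 0.0441). Of the stretches of Ms4a6c, 5.85% occur in Ms4a6b, some of them also in BE692007.

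The monocyte and macrophage markers summed to 297 and 400 FPKM in control and to 825 and 959 in SUV-OE. Of 16 tested, 12 were higher and 4 lower, at a median log2 fold change of 0.57 beside -0.02 over all tested genes, and none was called by limma. Lyz2, the gene of lysozyme, was the most abundant gene of the list at 101, 177, 570 and 703 (log2 fold change 2.24, limma adjusted p = 0.0596, limma-voom adjusted p = 0.00859). It held most of the difference in the sum, which was 196, 223, 255 and 255 without it. Adgre1, which encodes the macrophage antigen F4/80, was at 38.0, 55.4, 62.8 and 65.4 and Cd68, a lysosomal protein gene, at 26.9, 28.3, 38.9 and 32.0, both with SUV-OE above control. Vcam1, the gene of an adhesion molecule, had the opposite order at 48.2, 52.2, 31.0 and 33.6. limma-voom called 3 of 18 markers, Ccr2, Lyz2 and Mrc1, all higher, where it called 4.68% of all genes it tested (3.58% higher). Cx3cr1 entered that test only through SUV-OE. Of the 18, 13 had both SUV-OE libraries above both of control and 1 had both below, against 25.7% and 21.9% of the whole table. No marker of the list was at 0 in all libraries. The sum of the list moved with Ms4a6b, Ms4a6c, Ms4a4c and Ms4a7, and its part in their differences was not tested.

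Ms4a2 was low and higher in SUV-OE, at 0.365, 0.485, 0.881 and 0.780 from 20, 23, 44 and 39 reads. The groups did not overlap, and the means differed 1.95-fold (0.425 ± 0.0842 against 0.831 ± 0.0719, SD, n = 2). The log2 fold change was 0.36 (standard error 0.17, 95% interval -0.08 to 0.80, limma adjusted p = 0.308), and on the recovered reads 0.97 (limma-voom adjusted p = 0.166). It was called by neither.

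The beta chain works in a complex with the alpha chain, which binds IgE, and with the gamma chain. Fcer1a, the gene of the alpha chain, was at 0 in both control libraries, where 3 reads would give 0.155 and 0.178, and at 0.113 and 0.0564 in SUV-OE, from 2 and 1 reads. Fcer1g, the gene of the gamma chain that other Fc receptors share, was abundant at 130, 252, 196 and 228 and overlapped between groups (log2 fold change 0.22, limma adjusted p = 0.749). Of the 15 measured genes of the receptor's signaling pathway, 12 were higher and 3 lower in the fit without the filter, at a median log2 fold change of 0.11, and none of the 14 tested was called by limma. The kinase gene Btk was at 97.8, 105, 110 and 108, and the adaptor genes Vav1 (65.9 to 86.1) and Grb2 (79.6 to 109) overlapped between groups. limma-voom, which called 4.68% of all genes it tested, called 1 of 14, the kinase gene Fyn, at 0.566, 0.326, 1.55 and 1.69.

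Several markers of mast cells and basophils were well expressed in every library. Their sum was 117 and 142 FPKM in control and 220 and 202 in SUV-OE, most of the difference in Cpa3. This gene of mast cell carboxypeptidase A was at 21.3, 43.5, 112 and 103 (log2 fold change 1.78, limma adjusted p = 0.0951), and limma-voom called it (adjusted p = 0.0204). Hdc, the gene of the enzyme that makes histamine, was at 41.6, 38.9, 31.6 and 37.5 and the basophil protease gene Mcpt8 at 16.1, 21.1, 17.1 and 13.4, neither of them higher in SUV-OE, and Ikzf2 at 25.7, 26.8, 35.9 and 29.2. Of 10 measured, 8 had both SUV-OE libraries above both of control and 1 had both below, against 25.7% and 21.9% of the whole table. Of the 8, Prss34 (0, 3, 9 and 5 reads), Cma1 (0, 2, 3 and 7) and Cyp11a1 (1, 1, 8 and 5) rested on few reads. Of 6 tested, 4 were higher and 2 lower, at a median log2 fold change of 0.50 beside -0.02 over all tested genes. None of them was called by limma. Eosinophil markers summed to 62.2, 129, 175 and 113, which overlapped between groups. Of 9 measured, 7 had both SUV-OE libraries above both of control and 1 had both below, against 25.7% and 21.9% of the whole table. In the fit without the filter 8 were higher and 1 lower, at a median log2 fold change of 0.94 beside 0.01 over all genes. There was no call by limma or limma-voom. Epx, the eosinophil peroxidase gene, was at 0.263, 0.866, 3.95 and 1.60. Prg2 (15.2, 47.9, 75.7 and 37.1), a granule protein gene, overlapped as well, its relative Prg3 was lower in SUV-OE (17.1, 40.5, 10.9 and 6.82), and Siglecf (27.4, 31.5, 58.2 and 52.6) and Ear2 (1.50, 4.53, 9.95 and 7.51) were higher, none of them called. The part of these markers in the difference of Ms4a2 was not tested.

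Ms4a1 was at 0, 0.0287, 0.00911 and 0.0182 from 0, 3, 1 and 2 reads. Each group held 3 reads in all, the number taken as the floor, so no fold is given, and a difference was not detectable at this depth.

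This stood beside B-lineage markers that were higher in SUV-OE. All but 1 of the 14 measured were higher in SUV-OE in the fit without the filter, at a median log2 fold change of 1.29 beside 0.01 over all genes. Of the 14, 11 had both SUV-OE libraries above both of control, against 25.7% of the whole table. They summed to 22.7 and 31.7 FPKM in control and to 51.5 and 124 in SUV-OE, and SUV-OE 3 stood highest. limma tested 13 and called none. limma-voom called 6 of 13 (Cd79a, Pax5, Vpreb1, Rag1, Dntt and Il7r), where it called 4.68% of all genes it tested (3.58% higher). In limma 8 of the 13, and in limma-voom 5 of the 13, passed the filter only through their SUV-OE libraries. The called genes Pax5 and Dntt were among these 5, so no direction is read from the tested genes. Vpreb1, the gene of a surrogate light chain of pre-B cells, was at 0.277, 0.745, 6.23 and 19.3, and Dntt, the terminal transferase gene of early lymphocytes, at 0.0725, 0.390, 6.01 and 19.0. Vpreb3 was at 2.57, 1.79, 4.40 and 11.6, and Cd79b, of the B-cell receptor, overlapped between groups at 17.4, 25.0, 17.2 and 23.4. In the wider list of B-cell receptor partners, 13 of 16 measured genes were higher and 3 lower without the filter, with a median of 0.11, and none of the 11 tested was called by limma. Its most abundant genes besides Btk were Syk (26.0 to 31.1) and Lyn (21.6 to 25.8), both kinases, and the tetraspanin gene Cd81 (28.7, 32.5, 25.9 and 27.9).

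Erythroid markers also differed between the libraries. They summed to 22.0, 144, 150 and 121, with control 3 far below the other 3 libraries, and the hemoglobin genes Hbb-bs (5.24, 63.2, 38.9 and 28.7) and Hba-a1 (5.06, 47.7, 35.8 and 23.1) were likewise lowest in control 3. Control 3 was also the library in which Ms4a4c, Ms4a4b, Ms4a6b, Ms4a6c and Ms4a2 were lowest, a match whose part in their differences was not tested. The carbonic anhydrase genes Car1 (4.57, 2.28, 33.4 and 32.0) and Car2 (2.33, 1.47, 15.9 and 18.4) rose (log2 fold changes 2.98 and 2.66, limma adjusted p = 0.0280 and 0.0214). All 11 tested erythroid genes were higher in SUV-OE on the log2(FPKM + 1) scale, with a median of 0.80 beside -0.02 over all tested genes. Of the 11, 2 passed the filter only through their SUV-OE libraries.

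The other measured Ms4a genes of the cluster were all low, at 0.567 or less. Ms4a4a, a macrophage gene, was at 0.123, 0.567, 0.0674 and 0.269, Ms4a4d at 0.170, 0.196, 0.372 and 0.0744, Ms4a14 at 0.0885, 0.0292, 0.0555 and 0.0138, and Ms4a15 at 0.0579, 0, 0 and 0.0317, each overlapping between groups. Ms4a8a (0, 0.0330, 0.0942 and 0.0627) was the only one of these 5 with both SUV-OE libraries above. Tmem176a and Tmem176b, relatives of the family on chromosome 6, were at 0.270, 0.327, 1.12 and 1.25 and at 0.954, 1.07, 2.47 and 3.63. Their log2 fold changes were 0.75 (limma adjusted p = 0.111) and 0.99 (limma adjusted p = 0.0963), and limma-voom called both (adjusted p = 0.0232 and 0.0409). Tmem176a, with a control mean of 0.298, passed the filter of limma only through its SUV-OE libraries. These genes overlap each other on opposite strands, so their reads cannot be fully told apart.

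Other measured genes lie among the members along the chromosome. Gm8369, which lies between Ms4a6c and Ms4a6b (11485938 to 11512577), was at 0.0945, 0.188, 0.678 and 0.648 from 11, 19, 72 and 69 reads, and limma-voom called it (log2 fold change 2.29, adjusted p = 0.0277). Gm5511, between Ms4a4c and Ms4a4b, had 0, 0, 4 and 5 reads, and Gm19261, antisense to Ms4a6b, 0, 0, 4 and 1. Gm5692, a pseudogene antisense to Ms4a4c, had 3, 0, 0 and 2. AW112010, further toward the start of the cluster, was at 0.401, 1.54, 1.68 and 2.48 (limma log2 fold change 0.70, adjusted p = 0.318), and Gm6501 overlapped between groups at 1.48 to 2.47.

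The expressed genes flanking the cluster had the opposite order. Prpf19, a splicing factor gene, was at 34.7, 30.4, 25.0 and 26.2 (log2 fold change -0.33, limma adjusted p = 0.230) and Ccdc86 at 5.93, 4.36, 3.83 and 3.99 (-0.31, limma adjusted p = 0.364). Mrpl16, a mitochondrial ribosomal protein gene on the other side, was at 32.6, 33.2, 20.4 and 21.6 (-0.63, limma adjusted p = 0.0798). None of the 3 was called. Ptgdr2 (at most 0.0224), Oosp1 (at most 0.405) and Oosp2 (at most 0.227), next to the cluster, were near 0.

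**Figure D4:**
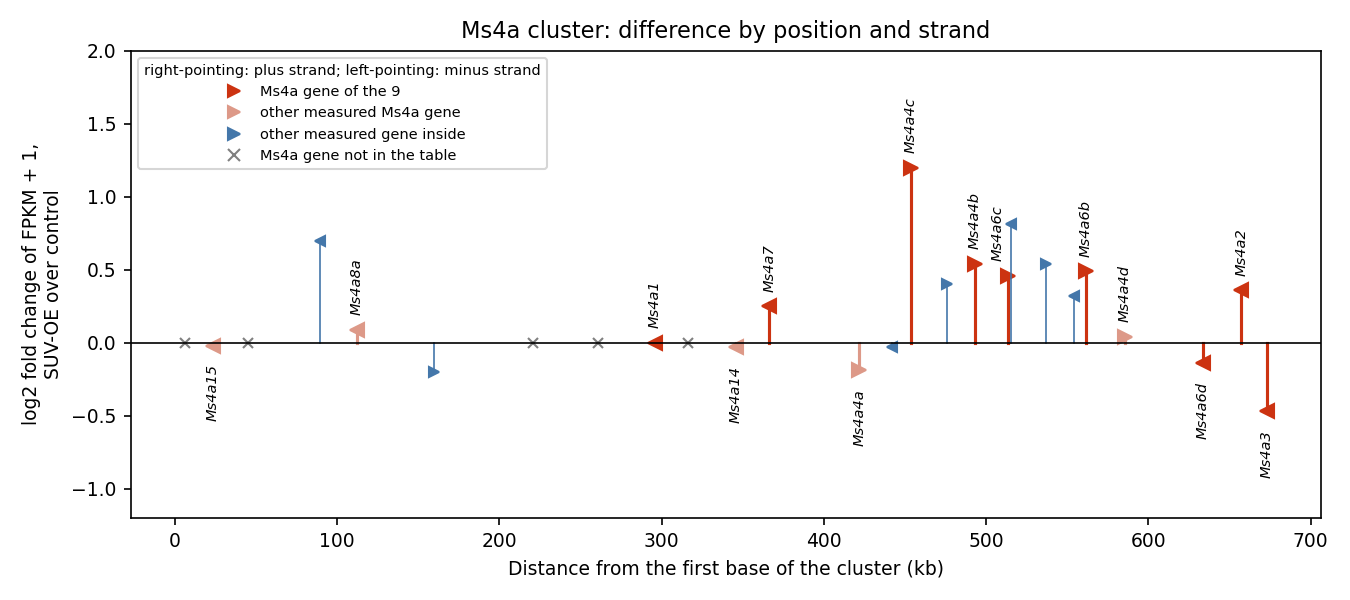
log2 fold change on the log2(FPKM + 1) scale, SUV-OE over control, from the fit without the filter, for measured genes of the Ms4a cluster by distance from its first base in kb, with arrowheads for the strand, red for Ms4a genes (dark for the 9), blue for other genes and crosses for Ms4a genes not in the table used. Ms4a4c (1.20) and Ms4a4b (0.54) stand above 0 among several genes that do, and Ms4a6d (-0.14) and Ms4a3 (-0.47) lie below it.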

How the data were processed

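RNA-seq of c-Kit+ leukemic cells comprised 2 control and 2 SUV-OE libraries. The authors prepared TruSeq v2 libraries, aligned reads to mm10 with TopHat2 (submitters' notes also name CASAVA 1.8) and deposited the FPKM of 23552 genes in each library. The paper names Cufflinks for the FPKM, which were nevertheless whole multiples of a step per library for most genes. The annotation release is not given in the sources used here, and IDs were matched to GENCODE M21 (99.5% matched).

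The members and lists were chosen with earlier results of these data known. log2(FPKM + 1) was compared with limma 3.58.1 in R 4.3.3, with an intensity trend and group as the only term, over the 13736 genes whose mean FPKM reached 0.5. Reads were recovered from the FPKM at the annotated exon length for 78.5% of genes and at another length for 20.9%, within a tolerance of 0.01. They were 23011825 and 20480662 in control 3 and 4 and 19564463 and 20282065 in SUV-OE 2 and 3, and were tested with limma-voom at a mean of at least 10 reads. Both fits and the recovery were checked on simulated data.

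Genes were named by rule: the 9 members, other measured Ms4a genes and relatives, Suv39h1, Kit, the genes within the cluster and 3 on each side, and from each list the called genes and the 4 of highest mean FPKM. Others were named after their values were seen. None was named for a similar pattern, since 4 libraries cannot rank likeness. Promoters were RefSeq sequences, and no protein sequences were used here. Alternatives were another pseudocount, other filters and scalings, no or a robust trend, other thresholds and leaving out each library. Leaving out libraries in limma-voom, and the smaller read numbers of Ms4a4b, were chosen after seeing the data.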

Additional observations from a re-analysis of the deposited data

How the results depend on the processing

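No paired analysis was possible because only replicate number 3 occurs in both groups. limma called 0 members, against 2 by limma-voom and 1 (Ms4a4c) at an adjusted p under 0.1. With Ms4a4b at its smaller read numbers limma-voom called 1 member, and without each library in turn it called from 0 to 2, the 0 without control 3. limma called 0 members without each library in turn, in fits that leave a lone library assumed to vary like the other group. Over the whole table limma called 168 genes, against 0 without the filter, 342 at an adjusted p under 0.1, 668 by limma-voom (667 with the smaller reads of Ms4a4b), 0 in each limma fit without 1 library and, in limma-voom, 72 without control 3, 499 without control 4, 547 without SUV-OE 2 and 534 without SUV-OE 3. The causes were not tested. The median log2 fold change of the 6 members tested by limma was 0.41 (0.30 to 0.51 without each library in turn), and for the same 6 genes 0.52 in limma-voom (0.34 to 0.68, the latter without control 4). Ms4a2 and Ms4a4c entered it only through their SUV-OE libraries, so it supports no direction of the family. The signs of Ms4a2, Ms4a3, Ms4a4c, Ms4a6b and Ms4a6c stayed in the alternatives that could be run for them (Ms4a2 and Ms4a6d were under the filter of a mean FPKM of 1), while Ms4a6d came to -0.00 without control 4. Ms4a4c ranged from 0.92 to 3.43 (adjusted p from 0.0289 to 0.442), Ms4a3 from -0.71 to -0.23 (limma without control 4), Ms4a2 from 0.21 to 1.16, Ms4a6c from 0.31 to 0.63 and Ms4a6b from 0.32 to 0.74 (lowest in limma without control 3), and Ms4a6d from -0.55 to -0.00. Depth limits Ms4a1, Ms4a7, Ms4a2, Ms4a4c, Ms4a6d and Ms4a4b, each resting on at most 150 reads in a library.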
